A study of Mus musculus with 24 samples.

Results

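Atad2 encodes a chromatin protein that joins an AAA+ ATPase to a bromodomain, the module that reads acetylated histones, and it is known to keep histone chaperones moving on and off chromatin. In the mouse testis its activity is associated with the male germ cells that are remodelling their chromatin after meiosis. The gene sits on chromosome 15 among genes of unrelated function, so that a change made to the Atad2 locus can be read in the genes beside it as well as in Atad2 itself.

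The neighbourhood was followed through 10 genes, chosen by name with earlier results of these data known. They are Atad2, 5 genes on its lower-coordinate side (Zhx2, Derl1, Tbc1d31, Fam83a and Zhx1) and 4 on its higher-coordinate side (Wdyhv1, Fbxo32, Klhl38 and Fam91a1). All 10 were found among the 24456 gene symbols of the deposited count tables, 9 under the symbol given here and 1, Fam91a1, under the older symbol D15Ertd621e, which RefSeq lists as a synonym. All 10 passed the filter on low counts, in a table of 17170 tested genes.

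The libraries were made from mouse testis collected at postnatal days 20, 22, 24 and 26, when the first wave of germ cells passes from meiotic spermatocytes to spermatids. They came from wild-type (WT) males and from males that the study's methods call homozygous for the Atad2 knockout (KO) allele. Each genotype contributed 4 libraries at each of days 20 and 22 and 2 at each of days 24 and 26, 24 libraries in all. The KO allele carries a lacZ reporter cassette to which the upstream exons of Atad2 are spliced, and a ubiquitously expressed CMV-Cre removed its floxed neo selection cassette together with exon 12. The loss is therefore in every cell type of the animal, not in germ cells alone. The titles and the study's methods name testis, taken here as whole tissue, while the extraction label also mentions purified spermatogenic fractions. RNA was depleted of ribosomal RNA and read with strand information. The methods of the study call the samples biological replicates and count fewer of them at day 20 than the labels do. Neither ties a library to a named animal, and the p-values measure the spread between these libraries.

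Library totals ran from 10709667 to 19491935 counts assigned to genes. WT day 20 replicate 2 had the lowest total and the largest share of reads aligned to several places, 13.7%, against a minimum of 4.74% in the series. A total of 3 counts corresponded to between 0.154 and 0.28 counts per 1000000 normalised reads (CPM). Markers of Sertoli cells, the somatic cells of the seminiferous tubule, summed to between 992 and 2300 CPM and those of pachytene spermatocytes to between 2900 and 5890 CPM. The 5 blood markers summed to between 5.11 and 15.5 CPM in WT and between 8.72 and 19.4 CPM in KO, with a mean difference of 0.33 on the log2 scale over the 3 that passed the filter. The other two, the haemoglobin genes Hbb-bs and Hba-a1, have near-identical copies and were listed at 0 in every library of these uniquely aligned reads. The 5 epididymal markers summed to between 2.11 and 720 CPM in WT and between 3.39 and 161 CPM in KO, with the highest library of each day in WT. Their mean difference was -0.53 on the log2 scale over the 3 that passed the filter, and their part in the results was not tested. The summed level of 8 round spermatid genes was 53.8 to 166 CPM in KO and 22.6 to 67.1 CPM in WT at day 20, and 962 to 1070 against 861 to 880 CPM at day 26. Across the 4 days 7 of 7 elongating spermatid markers were called higher in KO, with a mean difference of 1.71 on the log2 scale. In whole tissue, fewer cells of a type and less RNA per cell cannot be told apart.

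On the mm10 assembly with GENCODE M21 models, Atad2 lies at chr15:58094044-58135082 on the minus strand. Zhx2 (chr15:57694665-57839832, plus strand), Derl1 (chr15:57869502-57892448, minus), Tbc1d31 (chr15:57912199-57970067, plus), Fam83a (chr15:57985419-58011009, plus) and Zhx1 (chr15:58047003-58076541, minus) approach it from 254 kb to 17.5 kb. Wdyhv1 (chr15:58141377-58158665, plus) starts 6.29 kb from the Atad2 start and runs the other way. Fbxo32 (chr15:58175879-58214932, minus), Klhl38 (chr15:58314573-58324169, minus) and Fam91a1 (chr15:58415468-58457740, plus) follow at 40.8, 179 and 280 kb. None of these gene models overlaps another of the 10.

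The first comparison asked how far the Atad2 transcript itself fell in the KO testis. At day 20, Atad2 stood at 92.7, 171, 76.4 and 94.0 CPM in WT replicates 1 to 4 and at 30.8, 37.1, 36.0 and 32.2 CPM in KO replicates 1 to 4. At day 22 it stood at 93.2, 91.8, 78.2 and 76.1 CPM in WT and at 33.8, 45.3, 41.1 and 35.3 CPM in KO. On days 24 and 26 the pairs of WT libraries read 132 and 106 CPM, then 113 and 138 CPM, and the KO libraries 43.1 and 45.4 CPM, then 52.5 and 53.0 CPM. Every KO library was below every WT library on each day, and below every WT library of any day, with WT day 20 replicate 2 the highest of all.

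**Figure D1:**
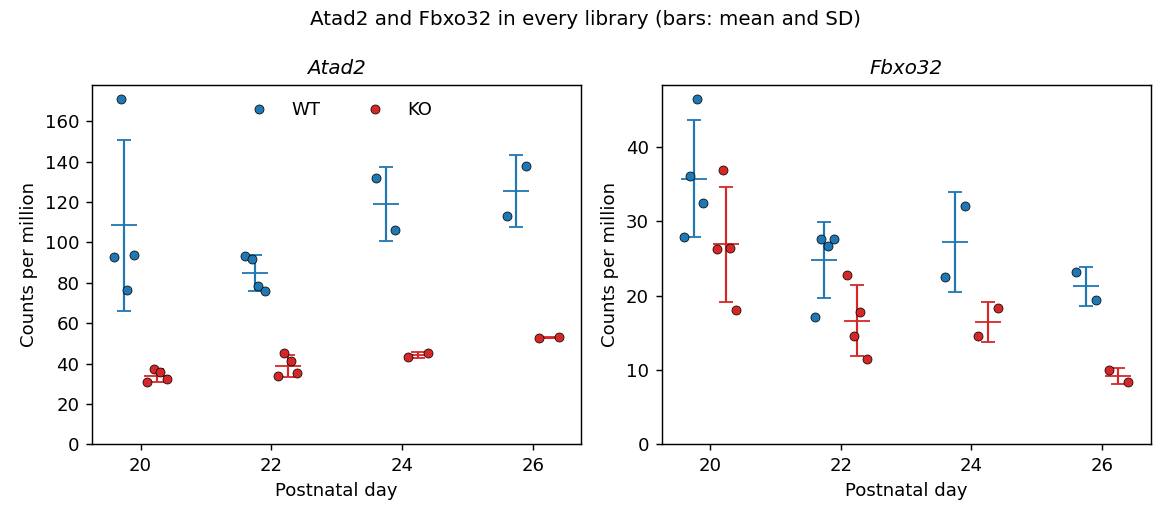
CPM of Atad2 (left) and Fbxo32 (right) in each of the 24 libraries against postnatal day, with WT in blue and KO in red, horizontal ticks at group means and bars of 1 SD. Atad2 does not overlap between genotypes on any day, whereas Fbxo32 overlaps at days 20 and 22 and is lower in both KO libraries than in both WT libraries at days 24 and 26.

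In edgeR's quasi-likelihood test with Benjamini-Hochberg adjustment over all 17170 genes, Atad2 fell over the mean of the 4 days by 1.37 on the log2 scale (SE 0.11, adjusted p = 1.23e-07). KO testis thus held 38.7% of the WT level, with a 95% interval from 33.0% to 45.5%. Taken singly, day 20 gave 31.4% of the WT level (adjusted p = 5.7e-05), day 22 gave 45.9% (adjusted p = 0.00233) and day 24 gave 37.1% (adjusted p = 0.0222). Fitted on the day 20 libraries alone, the value was -1.68 and was not called (edgeR, adjusted p = 0.0658), in a fit that called 5 genes in all. Day 26 gave 42.1%, with an adjusted p of 0.0628 that missed the threshold of 0.05. Of 6 other settings on that day, 3 called it: the spermatogenesis score as a covariate (edgeR, adjusted p = 0.0461), the day 26 libraries alone (edgeR, adjusted p = 0.00021) and DESeq2 (adjusted p = 0.00651). The fit on the day 26 libraries alone called 2104 of 16465 genes, against 8 of 17170 for that day with all libraries. Without WT day 20 replicate 2, which shares its estimate of the spread with the other days, the day 26 value was -1.23 (edgeR, adjusted p = 0.000957), and the day 20 value moved from -1.67 to -1.38. Leaving out any of the 4 libraries of day 24 raised its adjusted p above 0.05, to between 0.0876 and 0.572, with 1 library left in that group and values between -1.56 and -1.26 against -1.43 with all libraries. The exact permutation test over all 176400 relabellings within days gave an unadjusted p of 1.13e-05 for Atad2, the smallest those relabellings can give, with KO lower on 4 of 4 days.

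The counts cover all exons of the gene and cannot separate transcript ahead of the cassette from transcript beyond it. The annotated long Atad2 transcript has 28 exons over 5684 bases, of which the 11 exons before exon 12 hold 1427 bases, 25.1% of its length. The short transcript has 21 exons over 3472 bases, with 573 bases, 16.5%, before the same exon. Reads from those upstream exons of the KO allele would still be counted, and their share of the KO level was not analysed here.

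Ordered by mean level, Atad2 was highest in WT at day 26 (125 ± 18.3 CPM, SD, n = 2), then WT day 24 (119 ± 18.6, n = 2), WT day 20 (109 ± 42.6, n = 4) and WT day 22 (84.8 ± 8.93, n = 4). The KO groups followed with 52.7 ± 0.382 CPM (day 26, n = 2), 44.3 ± 1.65 (day 24, n = 2), 38.9 ± 5.31 (day 22, n = 4) and 34.0 ± 3.01 (day 20, n = 4). Neighbouring WT groups overlapped in that order. The libraries did not overlap between WT day 22 and KO day 26, nor between KO days 26 and 24, while KO days 24, 22 and 20 overlapped in sequence.

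The second comparison asked whether the genes beside Atad2 changed with it. Over the mean of the 4 days, 2 of the 10 genes passed the test, both lower in KO: Atad2 and Fbxo32. The same test called 7.08% of all 17170 genes. At days 20, 22 and 24 Atad2 was the only gene of the 10 called, against 3.34%, 2.51% and 0.0874% of all genes, and at day 26 none was, against 0.0466%. On day 26 the edgeR test gave 3 of the 10 genes, Atad2, Fbxo32 and Fam91a1, an unadjusted p under 0.05, as it did 1979 of all 17170 genes. DESeq2 called Atad2 on that day, among 138 of 16851 genes. The median log2 fold change of the other 9 genes was -0.06 over the mean of the 4 days, and that of all genes was 0.01. For a KO effect that differed between days, edgeR and DESeq2 called none of the 10 genes. In this test edgeR gave none of them an unadjusted p under 0.05, where it gave 1556 of all 17170 genes one, and DESeq2 gave 1, among 1777 genes. That test called 0.00582% of all genes in edgeR. Its unadjusted p was 0.208 for Atad2 and 0.256 for Fbxo32.

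Fbxo32 encodes atrogin-1, an F-box protein that brings substrates to an SCF ubiquitin ligase and is best known from wasting muscle. At day 20 its libraries read 27.9, 36.1, 46.4 and 32.5 CPM in WT and 26.3, 36.9, 26.4 and 18.0 CPM in KO. At day 22 they read 17.1, 27.6, 26.7 and 27.6 CPM in WT and 22.7, 14.5, 17.8 and 11.5 CPM in KO. The genotypes overlapped on both days, and WT day 22 replicate 1 lay far below its group.

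At day 24 Fbxo32 stood at 22.5 and 32.0 CPM in WT and at 14.5 and 18.3 CPM in KO. At day 26 it stood at 23.1 and 19.4 CPM in WT and at 9.98 and 8.38 CPM in KO. Both KO libraries were below both WT libraries on each of these days. With 2 libraries against 2 this holds, in 1 direction or the other, for 44.0% of all genes at day 24 and 59.0% at day 26, compared with 4.71% at day 20 and 8.09% at day 22, where there were 4 against 4.

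Over the mean of the 4 days Fbxo32 fell by 0.73 on the log2 scale (SE 0.14, edgeR, adjusted p = 0.00443), to 60.2% of the WT level (95% interval 49.3% to 73.6%). The log2 fold changes on the 4 days in order were -0.41, -0.57, -0.73 and -1.21, and none passed on its own, with edgeR adjusted p between 0.159 and 0.869. Fitted on the day 26 libraries alone, Fbxo32 did pass, at -1.21 (edgeR, adjusted p = 0.00261), in the fit that called 2104 genes against 8. The exact permutation p over libraries was 0.000465, unadjusted, with KO lower on 4 of 4 days. Each of the 24 fits that left out 1 library kept the call, with values from -0.79 to -0.65. With a score for the progress of spermatogenesis as a covariate, the value for the mean was -0.53 and the call was lost (edgeR, adjusted p = 0.0601). The values on the 4 days in order were then -0.03, -0.25, -0.63 and -1.21.

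Of 5 genes tested that mark peritubular myoid cells, the contractile cells around the tubules, 2 were called lower in KO over the mean of the 4 days: Acta2, smooth muscle actin, at -0.42, and Myh11, smooth muscle myosin, at -0.53 (edgeR, adjusted p = 0.0397 and 0.0122). The mean difference of the 5 genes was -0.43 on the log2 scale. Their summed level ran from 593 to 1040 CPM in WT and 509 to 658 CPM in KO on day 20, and from 496 to 732 against 251 to 514 CPM on day 22. It ran from 495 to 552 against 437 to 441 CPM on day 24, and from 363 to 436 against 270 to 312 CPM on day 26. The genotypes did not overlap at days 24 and 26. Skeletal muscle markers shared no direction. Of 6, 3 passed the filter and edgeR called none; 2 of the 3 had an unadjusted p under 0.05, Acta1 at -1.91 and Actn3 at 0.41. The summed level of the 6 was higher in KO without overlap on day 22 (18.1 to 24.8 against 10.5 to 15.2 CPM) and day 24 (18.4 to 20.3 against 9.74 to 14.3 CPM), and overlapped on day 20 (6.28 to 17.4 against 9.48 to 16.8 CPM) and day 26 (14.8 to 15.4 against 14.5 to 15.5 CPM). That sum leaned on Actn3, which held 76 to 367 counts a library. Acta1 reached at most 38 counts, Mylpf at most 20, Ckm at most 12 and Myh4 at most 7. The mean difference of the 3 that passed the filter was -0.16 on the log2 scale, with -0.18 on day 22 and 0.03 on day 24. Mylpf, the third of them, stood at -0.24. The part of these cells in the Fbxo32 result was not tested.

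Klhl38, a kelch-repeat gene also known from striated muscle, was close to absent. Its libraries held between 3 and 12 counts each, or 0.182 to 0.786 CPM, in both genotypes. Its log2 fold change over the mean of the 4 days was -0.22 (edgeR, adjusted p = 0.669). The 95% interval, from -0.74 to 0.31, leaves room for a change in either direction.

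Wdyhv1 encodes an amidase that converts N-terminal glutamine, an early step of the N-degron pathway of protein turnover, and is the gene nearest to Atad2. At day 20 it stood at 5.11, 4.95, 5.32 and 5.04 CPM in WT and at 6.53, 5.62, 3.43 and 3.86 CPM in KO. WT libraries were tightly grouped, and KO libraries lay on both sides of them. Over all libraries it ranged from 2.62 to 6.53 CPM. Its fold change over the mean of the 4 days was -0.06 (SE 0.11, 95% interval -0.29 to 0.17, edgeR, adjusted p = 0.81), and both KO libraries exceeded both WT libraries at day 24 alone.

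Zhx1 and Zhx2 encode transcriptional repressors with zinc fingers and homeoboxes. Zhx1, the nearest gene on the other side of Atad2, was the most abundant of the 10 in CPM, from 161 to 260, and did not separate by genotype on any day. Its fold change over the mean of the 4 days was 0.00 (SE 0.06, 95% interval -0.13 to 0.13, edgeR, adjusted p = 0.987), which leaves changes of at most 0.13 on the log2 scale within the interval.

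Zhx2 was much scarcer. At day 22 it read 13.5, 14.2, 18.6 and 18.3 CPM in WT and 10.6, 11.7, 13.6 and 10.6 CPM in KO, so that KO replicate 3 reached just above the lowest WT library. At day 26 it read 12.3 and 11.1 CPM in WT and 10.5 and 9.06 CPM in KO, without overlap. The fold change at day 22 was -0.48 (SE 0.18, edgeR, adjusted p = 0.171).

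Zhx2 over the mean of the 4 days was at -0.24 (SE 0.11, edgeR, adjusted p = 0.186), with KO lower on 4 of 4 days. Its exact permutation p was 0.021, unadjusted for the 10 genes tested this way. That p did not stay under 0.05 in every test with 1 library left out. With the spermatogenesis score as a covariate, Zhx2 stood at -0.38 for the mean and at -0.69 at day 22. No fit of the mean over the 4 days called it, with adjusted p from 0.0746 to 0.392 when 1 library was left out.

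Derl1 encodes a membrane protein of the endoplasmic reticulum that helps to extract misfolded proteins for degradation. At day 20 it read 57.3, 62.5, 55.6 and 60.9 CPM in WT and 75.4, 65.4, 69.3 and 72.6 CPM in KO. All 4 KO libraries were above all 4 WT libraries. The fold change was 0.26 (SE 0.09, edgeR, adjusted p = 0.152), which did not pass, whereas DESeq2 gave 0.25 and an adjusted p of 0.0437. The genotypes overlapped at days 22, 24 and 26, and the fold change over the mean of the 4 days was 0.03 (95% interval -0.08 to 0.14, edgeR, adjusted p = 0.793).

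Tbc1d31, which encodes a WD-repeat protein of centriolar satellites, ranged from 50.9 to 86.5 CPM. Both KO libraries were below both WT libraries at day 24 and above them at day 26, and the fold change over the mean of the 4 days was 0.02 (95% interval -0.13 to 0.16, edgeR, adjusted p = 0.92). Fam83a, a member of a family that anchors casein kinase 1, ranged from 0.527 CPM in WT day 20 replicate 2, where it had 5 counts, to 4.52 CPM. Its genotypes overlapped on every day, at 0.04 over the mean of the 4 days (95% interval -0.32 to 0.41, edgeR, adjusted p = 0.925).

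Fam91a1 encodes a protein that links golgins to vesicles arriving from endosomes. Its genotypes overlapped at days 20, 22 and 24. At day 26 it read 114 and 110 CPM in WT and 91.2 and 87.3 CPM in KO, without overlap, a fold change of -0.32 (SE 0.16, edgeR, adjusted p = 0.433). In the fit of the day 26 libraries alone the value was -0.31 (edgeR, adjusted p = 0.0478), and that fit called 2104 genes against 8. Over the mean of the 4 days it stood at -0.08 (95% interval -0.22 to 0.06, edgeR, adjusted p = 0.545).

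**Figure D2:**
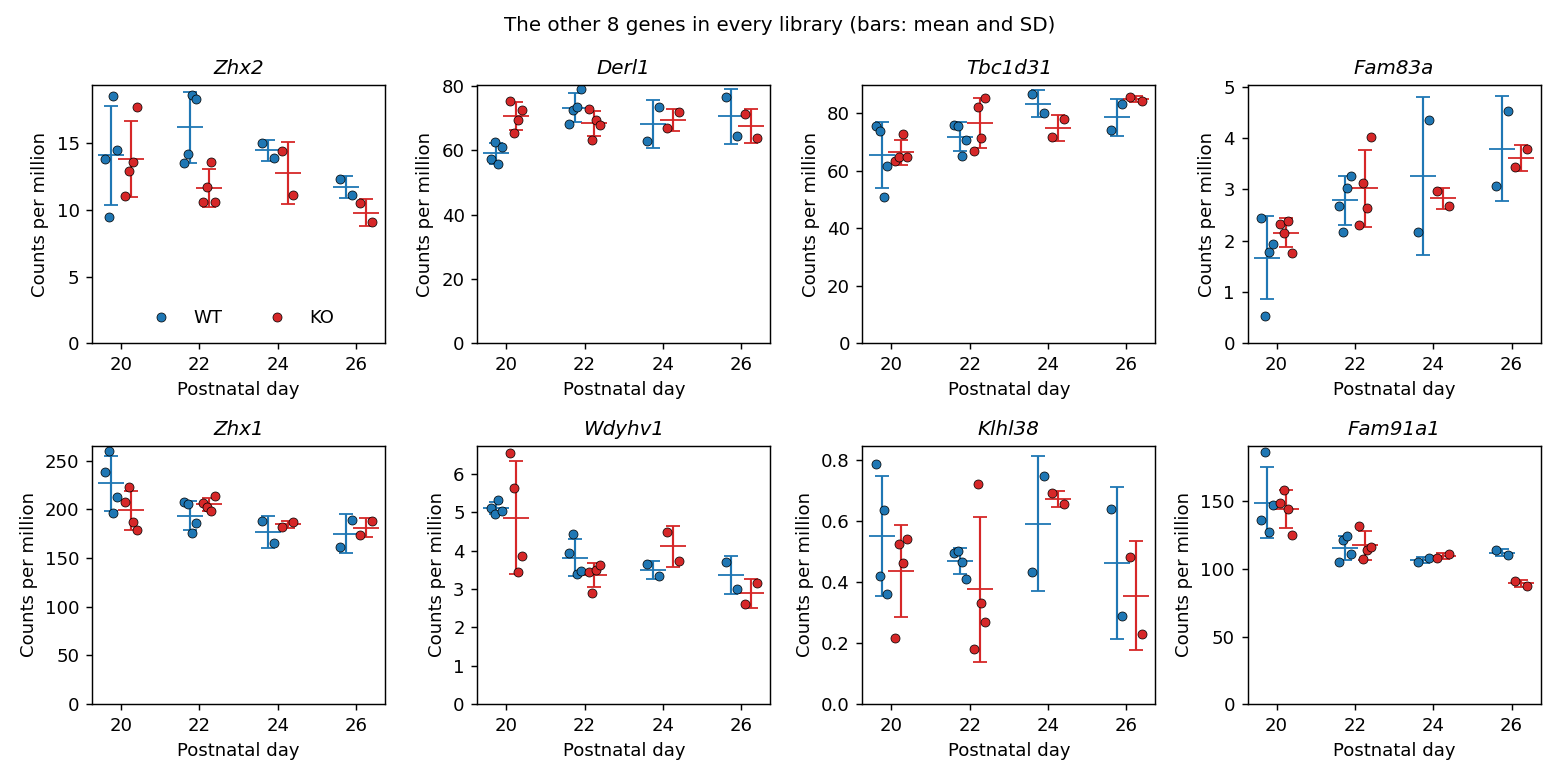
CPM of the other 8 genes in each library against postnatal day, with WT in blue and KO in red, horizontal ticks at group means and bars of 1 SD. The genotypes overlap on most days, with Derl1 at day 20 and Fam91a1 at day 26 among the exceptions.

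**Figure D3:**
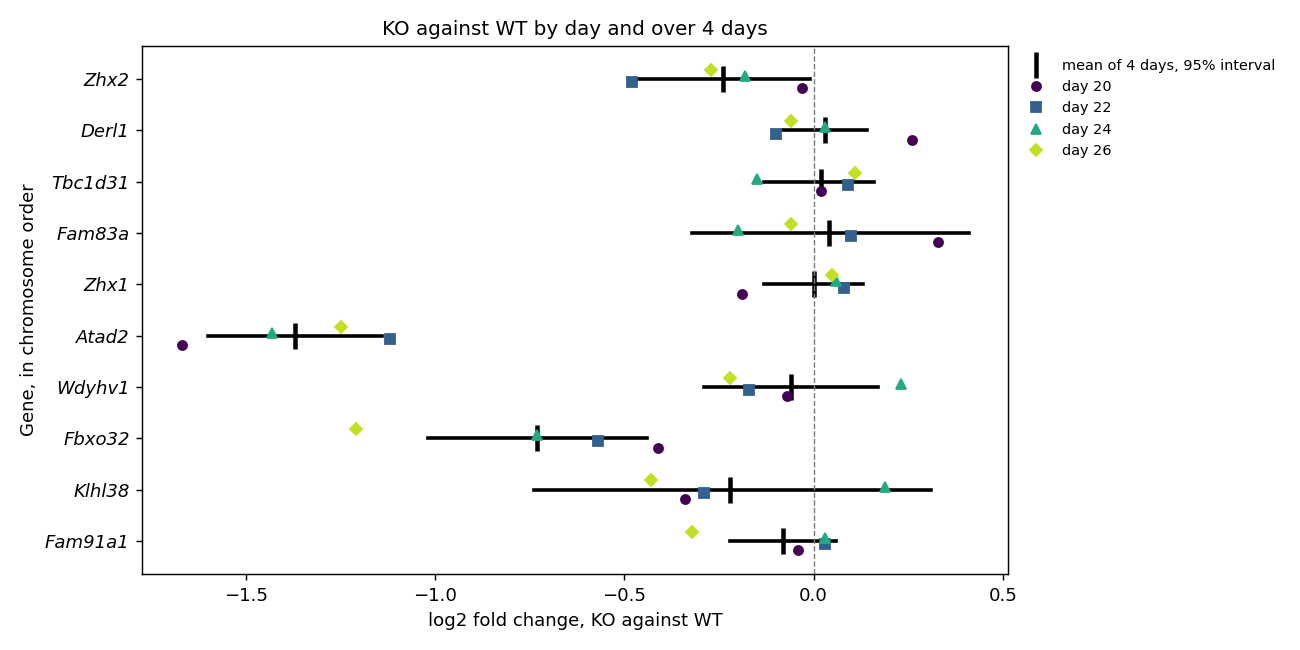
Log2 fold change of KO against WT for the 10 genes in chromosome order, with a tick and a line for the mean of the 4 days and its 95% interval and a symbol for each day. Atad2 at -1.37 and Fbxo32 at -0.73 lie left of 0 on every day, and the intervals of all the others but Zhx2 include 0.

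Divided by the length of the longest coding transcript, the WT levels of the 10 genes fell into 3 ranges. Zhx1 had the highest group means, from 33.5 to 43.5 CPM per kb, followed by Fam91a1 (19.2 to 26.8), Tbc1d31 (19.7 to 25.1), Derl1 (18.6 to 23.1) and Atad2 (14.9 to 22.1). Fbxo32 (3.05 to 5.12 CPM per kb), Wdyhv1 (2.43 to 3.69) and Zhx2 (2.68 to 3.69) formed a lower range, and Fam83a (0.582 to 1.32) and Klhl38 (0.209 to 0.267) the lowest. In KO, Atad2 dropped between these ranges, with group means from 5.99 to 9.28 CPM per kb.

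The third comparison widened the view along chromosome 15. Within 1 Mb of Atad2, 18 other genes were tested over the mean of the 4 days, the 9 neighbours above among them, and 2 were called: Fbxo32 and Slc22a22. That is 11.1% of the window, against 7.55% of 636 genes over 5 Mb away on the chromosome and 7.02% of 16321 genes on other chromosomes. Slc22a22, a member of the organic anion transporter family 616 kb from Atad2, was called higher in KO (edgeR, adjusted p = 0.0156). At day 20 its adjusted p was 0.0473, a call that held in 4 of 24 fits without 1 library, with values up to 0.179. It was barely detected: at day 20 the WT libraries held 0 counts and the KO libraries 1, 0, 7 and 10, and at day 26 the WT libraries held 17 and 12 and the KO libraries 21 and 33. No fold is given for it, since WT day 20 was at 0 counts and most libraries were near the floor of 3 counts. With the spermatogenesis score as a covariate it was not called (edgeR, adjusted p = 0.213).

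From 1 to 5 Mb, 5 of 23 tested genes were called, 21.7%, and all 5 were lower in KO. They were H2afy3, among the lowest p-values of the chromosome, and Pvt1, Col14a1, Mal2 and Ext1, which are named here after their values were seen. With limits of 2 and 10 Mb in place of 1 and 5 Mb, the shares were 8.33% of 24 genes and 13.6% of 44. H2afy3, a histone macroH2A-related gene 4.08 Mb away that may share reads with its relatives, fell by 1.77 on the log2 scale (SE 0.14, edgeR, adjusted p = 8.89e-08). Pvt1, a long non-coding RNA gene, stood at -0.98 (edgeR, adjusted p = 0.00154) and Col14a1, a fibril-associated collagen, at -0.95 (edgeR, adjusted p = 0.015). Ext1, a heparan sulphate polymerase, was at -0.33 (adjusted p = 0.0205) and Mal2, with 0 to 32 counts a library, at -1.63 (adjusted p = 0.0371). All 5 kept their sign in each of 24 fits without 1 library, and 2 of them, H2afy3 and Pvt1, kept the call in all 24. With the spermatogenesis score, Col14a1 stood at -0.73 and Mal2 at -1.67, and neither was called (edgeR, adjusted p = 0.125 and 0.122).

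Elsewhere on chromosome 15, Mpped1 and Sult4a1 had the lowest p-values beside H2afy3. They lie 25.6 and 25.9 Mb from Atad2 and stood at -1.59 (SE 0.16, edgeR, adjusted p = 2.82e-06) and -1.47 (SE 0.16, adjusted p = 5.29e-06) over the mean of the 4 days. Mpped1 encodes a metallophosphoesterase and Sult4a1 a sulphotransferase, both better known from brain.

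**Figure D4:**
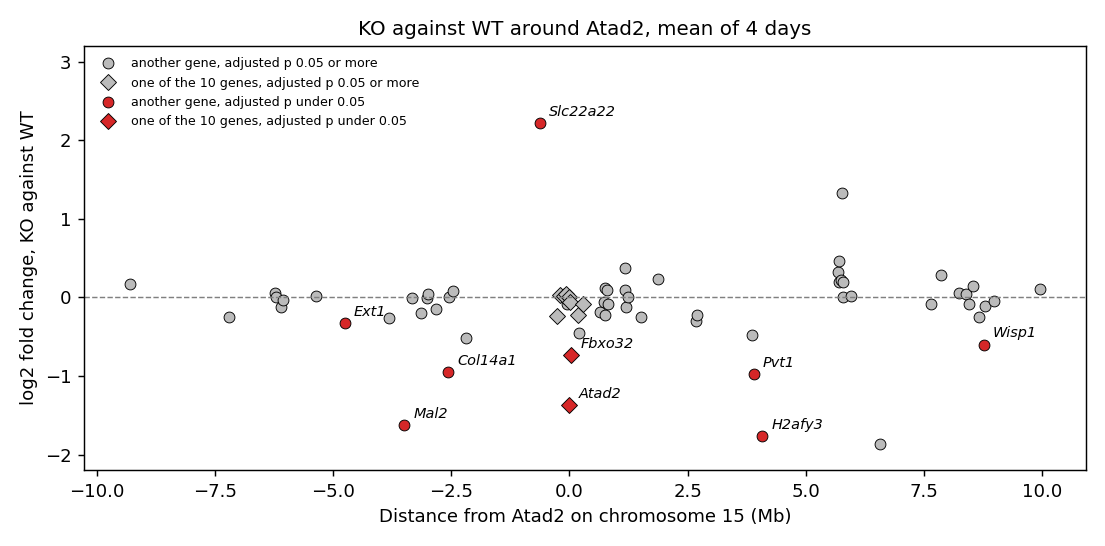
Log2 fold change of KO against WT over the mean of the 4 days, for the tested genes within 10 Mb of Atad2, against distance along chromosome 15 in Mb, with genes of adjusted p under 0.05 in red and the 10 genes as diamonds. Close to Atad2 most genes lie near 0, apart from Atad2 and Fbxo32; the value drawn for Slc22a22 is fitted against WT libraries with 0 counts at day 20 and depends on the prior count.

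The fourth comparison followed the same genes from day 20 to day 26 within each genotype. In WT, 5 of the 10 genes changed, where the test called 42.5% of all genes. Fam83a rose by 1.14 on the log2 scale (SE 0.35, edgeR, adjusted p = 0.0122). Zhx1 (-0.38, adjusted p = 0.0201), Fam91a1 (-0.41, adjusted p = 0.0188), Wdyhv1 (-0.60, adjusted p = 0.0384) and Fbxo32 (-0.75, adjusted p = 0.0377) fell. With 1 WT library left at day 26 the count was smaller: without WT day 26 replicate 1 only Fam83a was called, among 5258 of 17455 genes, and without WT day 26 replicate 2 only Derl1 and Zhx1, among 4724 of 17487. The 5 genes kept their direction in both fits. Without each of these libraries in turn, Fbxo32 was at -0.89 and -0.63, Wdyhv1 at -0.77 and -0.46, Fam91a1 at -0.45 and -0.39, Zhx1 at -0.27 and -0.50, and Fam83a at 1.39 and 0.84.

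In KO, 5 of the 10 changed as well, where the test called 52.2% of all genes. Atad2 rose by 0.63 (SE 0.22, edgeR, adjusted p = 0.0188) and Tbc1d31 by 0.36 (adjusted p = 0.0339). Fam91a1 (-0.69, adjusted p = 0.000357), Wdyhv1 (-0.75, adjusted p = 0.0101) and Fbxo32 (-1.55, adjusted p = 0.000259) fell. Without KO day 26 replicate 1 only Fam91a1 and Fbxo32 were called, among 6709 of 17469 genes, and without KO day 26 replicate 2 these and Wdyhv1, among 5829 of 17461. Without WT day 20 replicate 2 the count was 7, among 10147 of 17171 genes. With 1 KO library left at day 26, the 5 genes kept their direction. The Atad2 value was then 0.63 and 0.61 without each KO day 26 library (edgeR, adjusted p = 0.081 and 0.0998), and that of Tbc1d31 0.33 and 0.35 (adjusted p = 0.152 and 0.138). Fbxo32 at day 26 in KO was thus at 34.1% of its day 20 level, and in WT at 59.6%.

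The WT value for Atad2 was 0.21 (edgeR, adjusted p = 0.45), and it depended on a single library: without WT day 20 replicate 2 it was 0.48 (adjusted p = 0.00907). The difference between the genotypes in these changes was tested only through the test over days given above, which called none of the 10. The score for the progress of spermatogenesis rose from -2.53 ± 0.52 (SD, n = 4) at day 20 to 2.22 ± 0.15 (n = 2) at day 26 in WT, and from -1.12 ± 1.13 (n = 4) to 2.24 ± 0.08 (n = 2) in KO. It thus differed by genotype, most at day 20, and stood at 0.49 ± 0.77 in KO and -0.58 ± 0.22 in WT (n = 4 each) at day 22. With it as a covariate edgeR called none of the 10 genes between these days in either genotype, with 1 of the 10 at an unadjusted p under 0.05 in each. Of all 17170 genes, that fit called 3 in WT and 482 in KO, and gave 2327 and 3927 an unadjusted p under 0.05. With the replicate number as a block, Fam83a alone of the 10 was called in WT, among 4209 of 17170 genes, and Atad2, Fam91a1, Fbxo32 and Zhx2 in KO, among 5968.

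**Figure D5:**
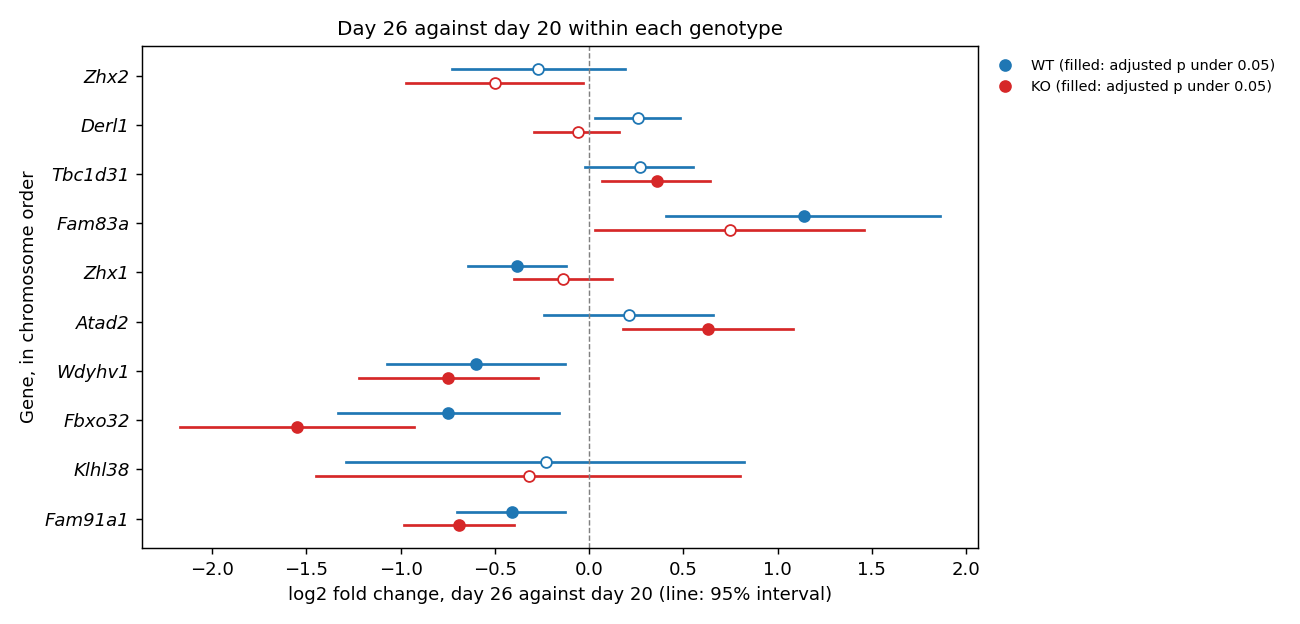
Log2 fold change from day 20 to day 26 for the 10 genes in chromosome order, WT in blue and KO in red, with 95% intervals and filled symbols for adjusted p under 0.05. Fbxo32, Wdyhv1 and Fam91a1 lie left of 0 in both genotypes with filled symbols, and Atad2 is filled in KO alone.

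Across the 12 WT libraries, the genes whose log2 CPM followed Atad2 most closely were not its neighbours. Diap3 (r = 0.97) and Fmn2 (r = 0.96), both formins that nucleate actin filaments, Cep290 (r = 0.94), a protein of the ciliary transition zone, Tax1bp1 (r = 0.93), an autophagy receptor, and Ing3 (r = 0.92), a histone acetyltransferase subunit, led the 17169 genes ranked. Without the 2 libraries farthest from the Atad2 median, WT day 26 replicate 2 and WT day 20 replicate 2, their coefficients ran from 0.85 to 0.93. Cep290 had also been placed in the list of centriolar satellite genes. These points share library depth and age, and the coefficients are descriptions. None of the 5 was called in KO over the mean of the 4 days, with fold changes between -0.06 and 0.12.

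Among the neighbours, Tbc1d31 came nearest (r = 0.60, rank 917) and Zhx2 ran opposite to Atad2 (r = -0.87, rank 17151). Zhx2 read 9.48 CPM in WT day 20 replicate 2, the library with the most Atad2, and its coefficient was -0.70 without the 2 farthest libraries. Across the 12 KO libraries it was -0.43. Fbxo32 had r = -0.19 in WT and -0.68 in KO, and Fam91a1 0.30 and -0.85. These WT values rested on WT day 20 replicate 2, without which they were -0.55 for Fbxo32 and -0.43 for Fam91a1.

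Genes known to act with the products of the 10 were taken as 9 lists, 63 genes in all, of which 62 were tested. These lists, too, were chosen with earlier results of these data known. Over the mean of the 4 days 3 of the 62 were called, 4.84% against 7.08% of all genes, 2 higher and 1 lower. Of the 13 genes for chromatin partners of ATAD2, none was called over the mean of the 4 days by edgeR or DESeq2. Its paralogue Atad2b, the HIRA and ASF1 chaperones, the histone H3.3 genes and FACT are among them. An unadjusted edgeR p under 0.05 was found for 2 of the 13, and for 3982 of all 17170 genes. Atad2b stood at -0.14 (SE 0.08, edgeR, adjusted p = 0.322). Nutm1, a testis gene whose product binds the acetyltransferase p300, was called at day 20 alone, at 1.27 (edgeR, adjusted p = 0.0166).

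In the FAM83 family, Fam83e was called higher in KO at 1.03 and Fam83b lower at -1.19 (edgeR, adjusted p = 0.0159 and 0.0333). Fam83e rose with age in both genotypes, from 0.466 ± 0.0585 CPM at day 20 to 18.3 ± 2.94 CPM at day 26 in WT, and Fam83b was under 1 CPM on average in every group. With the spermatogenesis score Fam83e stood at 0.39 and Fam83b at -1.15, and neither was called (edgeR, adjusted p = 0.265 and 0.134). The Fam83b call held in 14 of 24 fits without 1 library, with an adjusted p of up to 0.167 (without WT day 26 replicate 2). Among SCF and atrophy-related ubiquitin ligase genes, the partners of Fbxo32, Skp2 was the only 1 of 6 called, at 0.29 (edgeR, adjusted p = 0.0226). With the spermatogenesis score it stood at 0.28 and was not called (adjusted p = 0.111), nor was it without KO day 24 replicate 1 (adjusted p = 0.0809) or without WT day 26 replicate 2 (adjusted p = 0.066). On day 24 the KO group of Skp2 averaged 24.9 ± 5.38 CPM and the WT group 13.2 ± 0.568 CPM (SD, n = 2 libraries per genotype), where its fold change was 0.91 (edgeR, adjusted p = 0.0222), and at -0.10 at day 20.

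Of 5 cullin 3 and kelch genes, Klhl10, a germ cell substrate adaptor, was called by edgeR at day 20 alone, at 2.83 (edgeR, adjusted p = 0.0115), from 1.92 ± 0.883 CPM in the WT group to 13.9 ± 11.9 CPM in the KO group (SD, n = 4 libraries per genotype). Its value over the mean of the 4 days was 0.97 (edgeR, adjusted p = 0.0509), where DESeq2 called it. The round and elongating spermatid markers were higher in KO at day 20 too, by a mean of 2.06 and 2.43 on the log2 scale. Their part in the calls of Klhl10 and Nutm1 was not tested. For Fam83e only the spermatogenesis score, built in part from the round spermatid markers, was fitted, with 0.39 over the mean of the 4 days. By edgeR no gene was called, on any day or over the mean of the 4 days, among 5 genes of the ZHX family and NF-Y, 9 partners of DERL1 in the endoplasmic reticulum, 6 centriolar satellite genes, 7 of the N-degron pathway and 4 of the FAM91A1 complex and golgins. In that mean the unadjusted edgeR p was under 0.05 for 2 of the DERL1 partners, for 0 genes of these other lists and for 3982 of all 17170 genes. DESeq2 called 1 of the 9 DERL1 partners over that mean and none of these other lists, where it called 1784 of 18501 genes. The 1 called was Herpud1, a stress-induced member of the same machinery. On single days DESeq2 called Herpud1 at day 24, among 37 of 17264 genes. At day 26 it called Edem1, a lectin of the same machinery, among 138 of 16851 genes, and on no day any gene of these other lists.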

How the data were processed

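Per the labels and the study's methods, paired-end reads of stranded, ribosome-depleted testis RNA were aligned by the authors to mm10 with STAR 2.7.11b and counted with HTSeq over exons on the reverse strand. The deposited values are raw counts of uniquely aligned reads per gene symbol, 1 table for each of 24 libraries; 5 tally rows that name no gene were left out, and reads in no gene made 45.1% to 58.5% of the reads tallied in a library. The study's text gives fewer day 20 replicates than the 4 per genotype used here. Counts were normalised by TMM, filtered with filterByExpr and tested in 1 model of 8 groups with edgeR 4.0.16 (quasi-likelihood, Benjamini-Hochberg over 17170 genes, threshold 0.05). Standard errors were derived from the F statistic. Single genes were also compared by an exact two-sided permutation of log2 CPM (prior count 2) within days. The fit was tested on simulated data. Alternatives were relative log expression size factors, no filter, DESeq2 1.42.0, a replicate block, the spermatogenesis score (mean log2 CPM of round spermatid markers less that of pachytene markers), 1 day's libraries alone, 1 library left out, and other windows. Named genes were the 10; called genes within 1 Mb; the 3 lowest p-values elsewhere on chromosome 15; the 5 highest correlations with Atad2; and at most 3 called genes per list, with Atad2b. Genes named outside that rule, after their values were seen, were Pvt1, Col14a1, Mal2 and Ext1, the DESeq2 calls Herpud1 and Edem1, and members of the marker lists. The members and lists were chosen with earlier results of these data known. Promoter or protein sequences of the 10 genes were not used here.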

Additional observations from a re-analysis of the deposited data

Results flagged for a closer look

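WT day 22 replicate 1 stood apart in Fbxo32, at 17.1 CPM against 26.7 to 27.6 CPM in the other 3 libraries of its group, so that its gap to the nearest of them took up nearly the whole range of the group. It was the only such library among 40 groups of 4 libraries examined over the 10 genes, where chance alone gives about 2.0. Without it the Fbxo32 log2 fold change at day 22 went from -0.57 to -0.70, and still did not pass (edgeR, adjusted p = 0.112).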

How the results depend on the processing

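Over the mean of the 4 days, the call of Atad2 held in all 5 other settings and in all 24 fits that left out a library. The Fbxo32 call held in those 24 fits and in 4 settings, and was lost only with the spermatogenesis score. Of the other 8 members none was called for the mean in any of these fits. The score also turned Wdyhv1 to 0.08 and Fam91a1 to 0.02 for the mean. Between days 20 and 26 in WT it turned Zhx1 to 0.13, Wdyhv1 to 0.41, Fbxo32 to 0.65 and Fam91a1 to 0.26, and in KO it turned Zhx1 to 0.23. The score itself rose with age in both genotypes. Leaving out a library took the mean for Fam83a from -0.06 to 0.20 and for Zhx1 from -0.02 to 0.03, and the permuted mean of Tbc1d31 from -0.01 to 0.04.

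Counts of called genes over the whole table moved more. DESeq2 called 888, 737, 37 and 138 genes on the 4 days in order and 264 for an effect differing between days, where edgeR called 573, 431, 15, 8 and 1. With the spermatogenesis score, edgeR called 107, 51, 23 and 33 genes on the 4 days in order, 248 for their mean, 87 for an effect differing between days, and 3 in WT and 482 in KO between days 20 and 26. Fitted on 1 day's libraries alone, days 20, 22, 24 and 26 gave 5, 69, 11 and 2104 calls, and Atad2 at day 20 was not called (edgeR, adjusted p = 0.0658).

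Leaving out 1 library gave 151 (without WT day 20 replicate 3) to 780 calls (without KO day 20 replicate 2) at day 20, 60 (WT day 22 replicate 4) to 858 (KO day 22 replicate 1) at day 22, 0 to 24 at day 24 and 0 to 103 (WT day 20 replicate 2) at day 26. For the mean it gave 302 (WT day 24 replicate 2) to 1737 (KO day 22 replicate 1), for an effect differing between days 0 to 140, and between days 20 and 26 it gave 4724 to 7971 in WT and 5829 to 10147 in KO. The cause of these shifts was not tested. Where 1 library was left at day 24 or 26, it was assumed to vary like the other groups.

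Whether the replicate numbers pair the samples was not settled. Same-numbered WT and KO libraries deviated together with correlations from -0.46 to 0.42 over 12 pairs. Of these, 7 were above 0.1 and 7 matched best with their own number. The correlations ran from 0.07 to 0.41 at day 20 and from -0.46 to -0.03 at day 22. They were 0.39 at day 24 and 0.42 at day 26, where 2 libraries per genotype force both pairs to the same value. With the replicate number as a block, 9 genes were called at day 24, 5 at day 26, 14 for an effect differing between days, and 4209 in WT and 5968 in KO between days 20 and 26, where Zhx1 in KO turned to 0.07.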
